A study of Mus musculus with 30 samples.

Results

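Mouse embryonic stem cells without METTL14, given back either the wild-type protein or its 5RK mutant, were compared here by their lists of N6-methyladenosine (m6A) peaks. The comparison used 6 of the 30 samples of the series, namely the 3 m6A immunoprecipitation samples of each rescue line. A peak is a bin of 100 nt within a gene, and positions are those of GRCm38. Whether a bin lies in an exon or an intron was not analysed here. A bin or gene was counted as lost when all 3 lists of the wild-type rescue called it and none of the 3 lists of the 5RK rescue did, and as gained in the reverse case. By this rule 471 bins were lost (1.31% of the 36049 bins called in any of the 6 lists) and 124 were gained (0.344%). Of the 11095 genes called in any of the 6 lists, 112 were lost (1.01%) and 54 were gained (0.487%).

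All cells were embryonic stem cells of the C57BL/6 strain, grown on gelatin with serum and leukemia inhibitory factor. Both rescue lines carry the Mettl14 knockout, so they share the missing endogenous gene and differ in the METTL14 put back. In KO+WT this was METTL14 with no mutation named, and in KO+5RK it was a mutant that the labels call deficient in arginine methylation. Which arginines were changed, which promoter drives the rescue protein, how much of it the cells make and whether each line is 1 clone are not given in the sources used here. Thus the mutation and any other difference between the 2 lines cannot be told apart. The unrescued knockout (KO), the parental wild type (WT) and a further mutant rescue (KO+13RK), with 3 lists each, serve below only to place the bins that differed.

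m6A is a methyl mark on adenosines inside messenger RNA, where it affects splicing, translation and decay. The mark is laid down in the nucleus by a complex of METTL3, which holds the active site, and METTL14, which helps to bind the RNA. The complex prefers short sequences around a GGAC or similar core, and the marks are densest near stop codons and in the last exon. METTL14 ends in a disordered tail with many arginines next to glycines, a kind of sequence that protein arginine methyltransferases modify. In embryonic stem cells m6A on pluripotency transcripts speeds their turnover, and the title of the series ties methylation of the METTL14 tail to DNA repair.

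The letters of a few bins near gene starts could be read, and they do not stand for the lists as a whole. Sequence of the build of the files was to hand only for RefSeq promoter windows (GRCm38.p6), which reach from 250 nt before to 50 nt after a gene start. Of the bins in the 6 lists, 150 lay wholly inside a window on the same strand, and 67 of these (44.7%) held GGAC when read along the transcript. In the last 100 nt of all 32851 windows, read in the same way, the share was 32.0%. All windows were used, whether or not the gene had a called bin, and positions were not matched to those of the bins. Only the strand of the transcript was searched, since the mark sits on RNA. Only 5 bins called in all 6 lists lay wholly inside a window. They are shown by 30 nt each as the reference for bins present in both rescue lines, with GGAC in capitals.
Gtf2h2 (chr13:100492474-100492503, minus strand): gctggagtgaggcGGACaggagaagaagcc
Hnrnpdl, first bin (chr5:100039310-100039339, minus strand): gctctgcactaggGGACtgagggcgcagca
Hnrnpdl, next bin (chr5:100039242-100039271, minus strand): ctcaaggcaagagGGACtgtggccctgcca
Man2a1 (chr17:64601467-64601496, plus strand): agcaagtttgtggGGACctttgccttgctc
Ctnnb1 (chr9:120933517-120933546, plus strand): ctcgtgtcctgtgaagcccgcggcccgggg
The Ctnnb1 bin held no GGAC in its 100 nt, and the Gtf2h2 bin and the first Hnrnpdl bin held it 3 times each.

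Among the bins that differed between the lines, 3 lost bins and 1 gained bin reached 20 nt or more into a window, and they are shown because they are the changed bins whose letters could be read. The gained bin, in the seipin gene Bscl2, held GGAC once in the 90 nt read. The lost bins, in Cyb5b, Rtel1 and Sub1, held none in the 70, 34 and 82 nt read, which says nothing of the rest of each bin.
Bscl2, gained (chr19:8839078-8839107, plus strand): aGGACttggagctaaaaatatccgtagcac
Cyb5b, lost (chr8:107150641-107150670, plus strand): cagcgcgggccggcaagtcaaggaagttag
Rtel1, lost (chr2:181319740-181319769, plus strand): ggcgtggctacacggatctgcccgcgaagt
Sub1, lost (chr15:11996010-11996039, minus strand): gcctctaagctgccgtcatttccggctctc
Rtel1 encodes a helicase that protects telomeres, and its lost bin was called in 3 of 3 WT lists, 1 KO list and 2 KO+13RK lists. In the same order, the Cyb5b bin was called in 3, 3 and 2 lists, the Sub1 bin in 3, 2 and 0, and the Bscl2 bin in 2, 1 and 0. Rtel1, named after its values were seen, had a further lost bin at chr2:181355740-181355839, and as a gene it was called in no KO+5RK list.

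The KO+WT lists held 14247, 17185 and 14187 peaks and the KO+5RK lists 13013, 12706 and 11174. Every KO+5RK list was shorter than every KO+WT list. The means were 15206 ± 1714 and 12298 ± 985 (SD, n = 3), 19.1% lower in KO+5RK (two-sided exact permutation test, p = 0.1, the smallest that 3 lists against 3 allow). Genes with a peak numbered 6219, 7085 and 6317 in KO+WT and 5922, 6112 and 5644 in KO+5RK, again with no overlap and 9.90% lower in the mean (exact permutation p = 0.1). The second KO+WT list was the longest, and without it the difference in peaks per list was -1919 in place of -2909. Read depth is unknown for these lists, so a bin that was not called is not a bin without m6A. The labels do not say whether the replicates were separate cultures, so each p measures only the spread between these lists.

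The relative difference was larger for the count of genes with many peaks. Such a count also depends on the length of the list, and no value at equal list length is given here for it. Genes with 5 or more peaks numbered 508, 740 and 500 in KO+WT and 358, 322 and 282 in KO+5RK, 45.0% lower in the mean (exact permutation p = 0.1). Peaks per gene averaged 2.32 ± 0.0935 in KO+WT and 2.09 ± 0.109 in KO+5RK (SD, n = 3). Genes with a single peak made up 47.1% ± 2.06 of the genes of a KO+WT list and 51.8% ± 2.28 of a KO+5RK list.

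**Figure D1:**
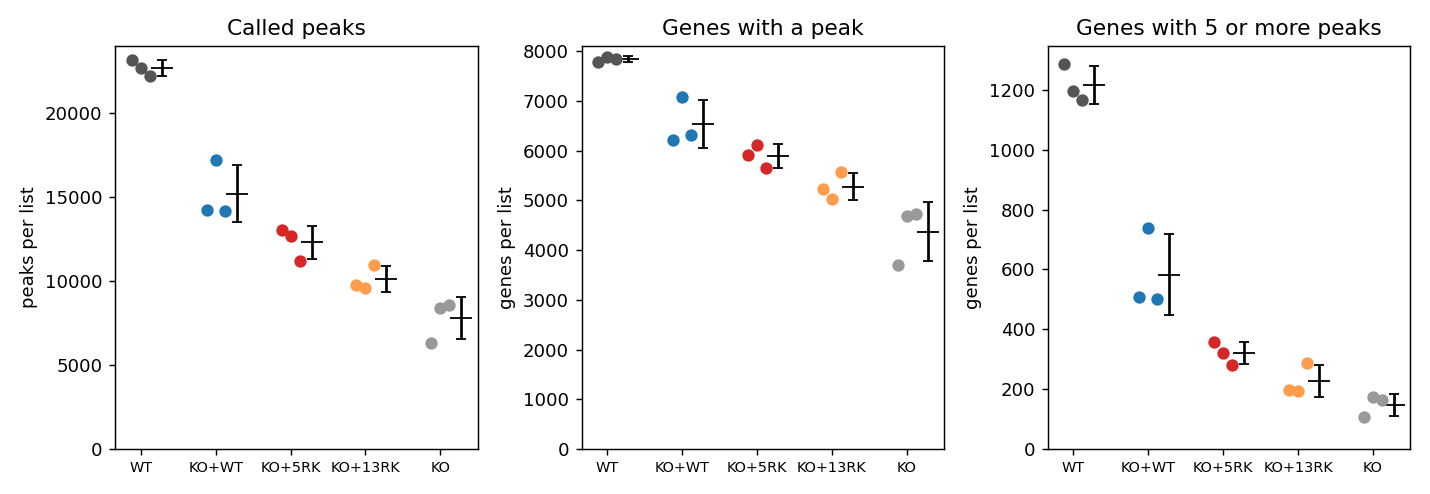
Called peaks, genes with a peak and genes with 5 or more peaks in each of the 15 lists, by cell line; points are lists, and the bars give the mean and SD of 3 lists. The KO+5RK lists sit below all KO+WT lists in each panel, with 282 to 358 genes of 5 or more peaks against 500 to 740.

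The position of peaks along genes overlapped between the lines. Peaks within 2000 nt of the gene end made up 32.0%, 30.4% and 34.2% of the placed peaks in KO+WT and 33.9%, 35.3% and 35.5% in KO+5RK, ranges that overlapped (exact permutation p = 0.2). Peaks within 500 nt of the gene start made up 5.82%, 7.30% and 4.07% in KO+WT and 7.35%, 5.62% and 5.65% in KO+5RK (p = 0.9, exact permutation). Without the third KO+WT list, or without the first KO+5RK list, the sign of that last difference turned. The share of peaks in bins that no KO list called was 75.8%, 76.4% and 76.9% in KO+WT and 74.4%, 76.1% and 74.2% in KO+5RK (exact permutation p = 0.2). These p-values do not show that the 2 lines are alike in placement.

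The bins that the wild-type rescue called in every list were followed into the mutant. There were 6211 of them, called the core bins here. The 3 KO+5RK lists called 78.1%, 74.2% and 66.3% of the core, and the 3 WT lists, from a separate line, called 90.5%, 90.6% and 91.2%. The WT lists were much longer, at 23164, 22668 and 22217 peaks, and a longer list can call more of any set of bins. The full call in KO+WT is fixed by how the core was chosen and is no comparison. In the reverse direction, 4185 bins were called in all 3 KO+5RK lists, and the KO+WT lists called 86.2%, 88.4% and 87.3% of those. The third KO+5RK list, which was also the shortest, called the fewest core bins. Of the 4005 genes that every KO+WT list called, the KO+5RK lists called 85.3%, 85.3% and 78.2%.

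Core bins were split by the knockout, which shows the calls made with no METTL14 at all. For the 4439 core bins that no KO list called, the KO+5RK lists called 76.3%, 72.8% and 63.6%, and the KO+13RK lists 56.4%, 53.7% and 63.0%. Every KO+5RK list was above every KO+13RK list (exact permutation p = 0.1). The KO+13RK lists were also shorter than every KO+5RK list, at 9747, 9588 and 10980 peaks. For the 993 core bins that all 3 KO lists called, the shares were 89.1%, 85.4% and 78.7% in KO+5RK and 79.6%, 83.6% and 81.2% in KO+13RK, with overlapping ranges (exact permutation p = 0.5). In each KO+5RK list the bins absent from the knockout were thus called less often than the bins the knockout also had.

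**Figure D2:**
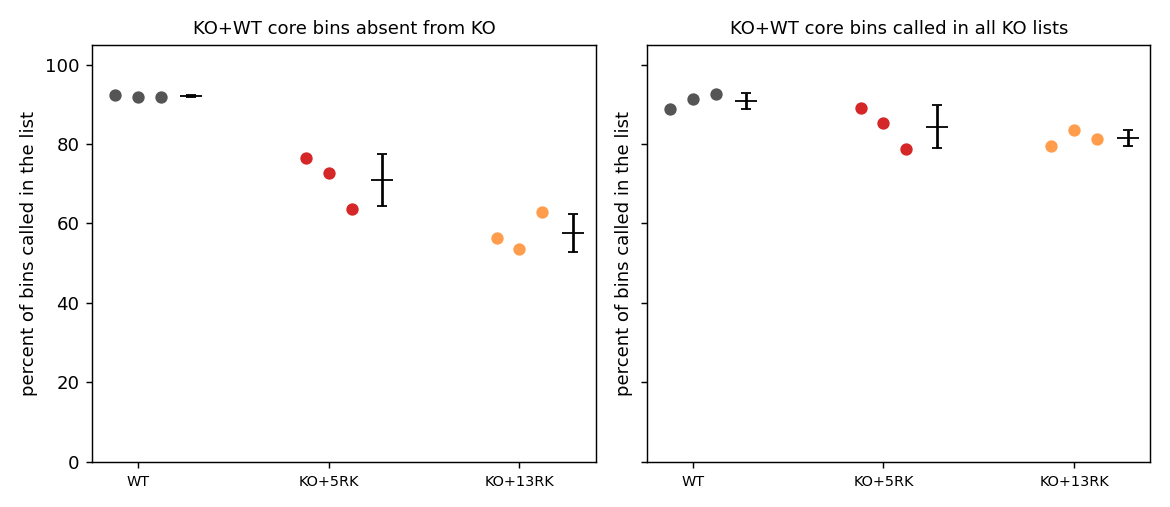
Percent of KO+WT core bins called in each WT, KO+5RK and KO+13RK list, on the left for the 4439 core bins absent from all KO lists and on the right for the 993 called in all 3 KO lists; points are lists, bars the mean and SD of 3. On the left KO+5RK lies at 63.6% to 76.3%, between WT and KO+13RK, while on the right KO+5RK and KO+13RK overlap. Of these lines WT had the longest lists and KO+13RK the shortest.

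The 471 lost bins lay in 421 genes, of which 37 had at least 2 lost bins and 8 had at least 3. Of those 421 genes, 204 were still called in all 3 KO+5RK lists through other bins and 52 in none. A bin of some KO+5RK list lay within 100 nt on the same strand of 294 lost bins, leaving 177 with none. The median lost bin stood at percentile 47.6 of its KO+WT lists when ranked by p, against 80.6 for the 3127 bins called in all 6 lists. A further 1030 bins were called in all KO+WT lists and in 1 KO+5RK list, just outside the rule, and 1583 in 2. The deposited enrichment values of each bin are the authors' own, and they and the p-values serve here only to rank bins within a list.

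Lost and gained bins differed in the genes that held them. Genes with a lost bin had a median span of 48.2 kb and genes with a gained bin 19.6 kb, against 30.4 kb for genes with a bin in all 6 lists. Bins within 2000 nt of the gene end made up 28.2% of the placed lost bins, 39.4% of the gained bins and 35.7% of the bins in all 6 lists. Near the gene start the shares were 3.64%, 6.73% and 4.48%. These are descriptions of sets chosen by the calls, with no test.

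The other lines place these bins, but their lists differ in length, with mean peaks of 22683 in WT, 10105 in KO+13RK and 7777 in KO. WT cells called 53.1% of the lost bins in all 3 lists and 10.2% in none. The knockout called 81.1% of them in no list, and KO+13RK called 56.7% in no list and 3.18% in all 3. Of the gained bins, 31.5% were called in no WT list and 28.2% in all 3, 69.4% in no KO list, and 37.1% in no KO+13RK list. Bins of all 6 lists were called in all 3 WT lists in 91.4% of cases and in all 3 KO+13RK lists in 63.5%. Of the bins of all 6 lists, 67.2% were called in no KO list.

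**Figure D3:**
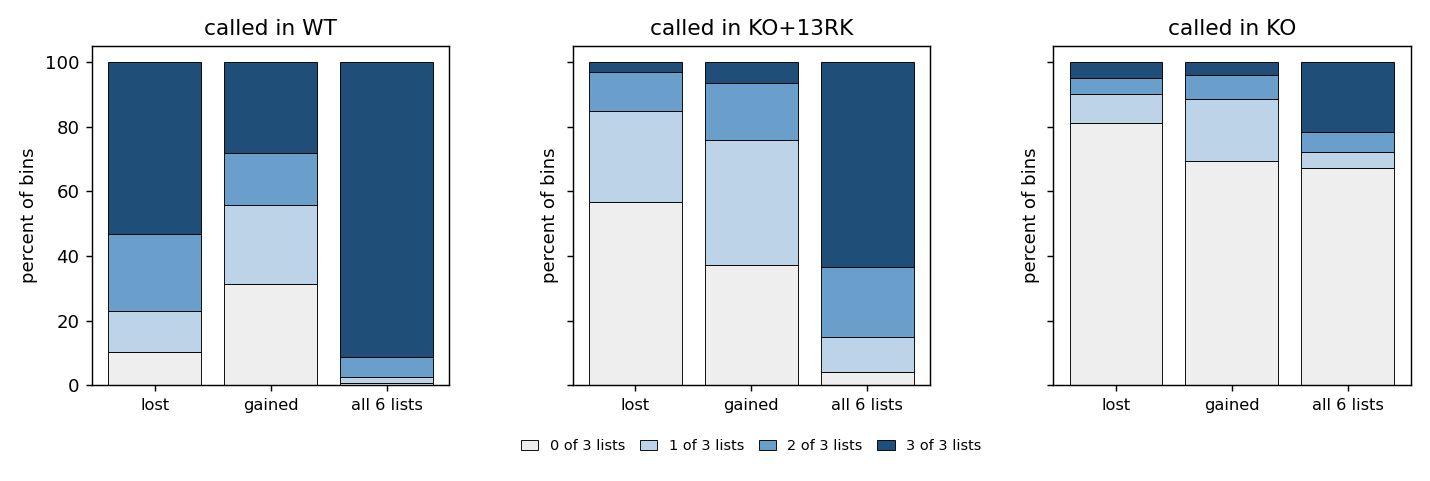
Share of lost bins (471), gained bins (124) and bins called in all 6 lists (3127) that 0, 1, 2 or 3 lists of WT, KO+13RK or KO called; each bar adds to 100 percent of its set. Of the lost bins 53.1% were called in all 3 WT lists and 81.1% in no KO list.

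Among the strongest lost bins by within-list rank, that of Myo16, an unconventional myosin gene, was chr8:10629112-10629211, with enrichment values of 2.62, 3.19 and 3.11 in the KO+WT lists and a mean percentile of 97.9. It was the only bin Myo16 had in those lists. In Nme7 (chr1:164329022-164329121), of the nucleoside diphosphate kinase family, the values were 2.38, 2.73 and 3.11, and 3 WT lists called the bin. Ccar1, a coactivator of cell division and apoptosis, had its lost bin at chr10:62753329-62753428, called in 3 WT lists and in no KO or KO+13RK list. The phosphodiesterase gene Pde7a (chr3:19226909-19227008) had the smallest q of these in its second KO+WT list, 3.903e-09. Rbm44, Fam217b, Ggps1, B230344G16Rik, Prcp, Rad51b and Erbin complete the strongest set, at percentiles of 91.3 to 95.5. The top bin was assigned to Gm20388, an uncertain name, since the bins of Gm20388 spread over 81 other genes on chromosome 8.

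Among the gained bins of highest rank, Bub1, a kinase of the spindle checkpoint, had one at chr2:127801123-127801222, whose midpoint lay 975.5 nt before the gene end. Its enrichment values were 2.56, 2.66 and 2.49 in the KO+5RK lists, and 2 WT lists called it. Kmt5b, which methylates histone H4, gained chr19:3815622-3815721, called in no WT, KO or KO+13RK list. The gained bin of Gm16066 covers nearly the same bases on the other strand, so it is uncertain which of these 2 genes the signal belongs to. Zfand6 (chr7:84615567-84615666) and Mbip (chr12:56328404-56328503) gained bins that all 3 WT lists called. In both genes the gained bin lay near the gene end, 571.5 and 147.5 nt before it. The other gained bins of this rank were in 2410018L13Rik, Dpy19l4, Eif2s3y, 2310031A07Rik, Nupl1, Zfp462 and Fgfr2. The Fgfr2 name is uncertain, since 0.943% of its bins lay inside the span of that gene.

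Lost and gained genes often had a single bin in each list that called them. In 44 of the 112 lost genes (39.3%) each KO+WT list had a single bin, as had each KO+5RK list in 26 of the 54 gained genes (48.1%). Among the 2598 genes called in all 6 lists that share was 8.28% in KO+WT. The sets were chosen by the calls, and a gene with few bins meets the rule more easily, so these shares are descriptions with no test. Of the lost genes 96 were protein coding and 5 were long noncoding, against 2393 and 55 of the 2598 genes called in all 6 lists. The knockout called 56 of the 112 lost genes in no list (50%), KO+13RK 51 (45.5%), and WT 14 (12.5%). Among the genes called in all 6 lists these shares were 21.6%, 2.39% and 0.385%.

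Adcy1, which makes cyclic AMP, was among the 12 lost genes of highest rank, with 2, 1 and 1 bins in KO+WT, 6, 8 and 4 in WT, and none in KO+5RK or KO. Sec61b, a subunit of the channel into the endoplasmic reticulum, and Nudt6, a nucleotide hydrolase gene, had 1 bin in each KO+WT list and none in any list of the other 4 lines. Sec61b had 1, 0 and 1 bins in KO+WT at equal list length and Nudt6 none, so that neither was lost. Tpp1, a lysosomal peptidase gene, had 3, 1 and 1 bins in KO+WT and was called in 2 WT lists and 2 KO lists. Rbm44 had 1, 2 and 2 bins in KO+WT and 2, 3 and 1 in WT. Myo16, Fam19a5, Mad2l1, BC067074, B230344G16Rik, Gm28038 and Ubl4a make up the rest, and the bins listed for Ubl4a lay outside its RefSeq span. Myo16 had 0, 1 and 1 bins in KO+WT at equal list length, Gm28038 3, 0 and 1, and Mad2l1 2, 1 and 0. The other 7 of these 12 genes were lost at that length too.

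Trib1, a pseudokinase that directs protein degradation, led the gained genes, with 1 bin in each KO+5RK list and none in the other 12 lists. The next were Nbeal1, with 6, 4 and 2 bins in WT, and Paip1, a partner of the poly(A)-binding protein in translation, called in 2 lists each of WT, KO and KO+13RK. Scn2b, a sodium channel subunit gene, had 1, 2 and 1 bins in KO+5RK and none in the other 12 lists. Ndufa13, of respiratory complex I, had 1, 2 and 1 bins in KO+5RK and was called in 1 WT list. Cep85l, Tmem265, Fbxo44, Zbtb49, 2410131K14Rik, Zfp157 and the Y-linked Eif2s3y were the remaining ones of the leading 12. Tmem265 had 1, 0 and 1 bins in KO+5RK at equal list length, and the other 11 were gained at that length too.

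The number of bins per gene gives a graded measure. In 388 genes (3.5% of 11095) every KO+5RK list had fewer bins than every KO+WT list, and in 92 (0.829%) every KO+5RK list had more. Among the 2598 genes called in all 6 lists these were 171 (6.58%) and 24 (0.924%). With each list limited to the 11174 peaks that had the smallest p, 206 genes had fewer and 172 had more, so that the imbalance nearly went away at equal list length. The same reduction gave 245 lost and 181 gained bins, and 70 lost and 87 gained genes.

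Kat6b, a histone acetyltransferase gene on chromosome 14 (chr14:21499216-21672478, GRCm38, plus strand), had 26, 30 and 23 bins in KO+WT and 13, 8 and 2 in KO+5RK. The ranges did not overlap, and the third KO+5RK list was the lowest. The KO lists had 12, 15 and 16 Kat6b bins, a mean of 14.3 against 7.67 in KO+5RK. Kat6b also had the most lost bins of any gene, 8. Of these, 5 lay 2893.5 to 4093.5 nt before its end, the first being chr14:21668335-21668434 and the last chr14:21669535-21669634. The remaining 3 lay 17568.5 to 18068.5 nt after its start, from chr14:21516735-21516834 to chr14:21517235-21517334. WT called 7 of the 8 in all 3 lists, and at equal list length Kat6b still had 23, 24 and 20 bins against 13, 8 and 2. All 8 were weak by enrichment, at percentiles of 3.52 to 21.5.

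Srrm2 (chr17:23790527-23824741, plus strand), a large scaffold protein of nuclear splicing speckles, had 38, 36 and 33 bins in KO+WT and 26, 13 and 5 in KO+5RK. The WT lists had 70, 61 and 71, and the KO lists had 41, 27 and 42, about as many as KO+WT. The KO+5RK values spread more widely than the KO+WT values, 14.7 ± 10.6 against 35.7 ± 2.52 (SD, n = 3). Counting only bins whose enrichment value reached the median of the 6 lists, the difference in mean bins of Srrm2 was -0.33 in place of -21. At equal list length the Srrm2 ranges overlapped, with 26, 21 and 20 against 21, 11 and 5. Huwe1 (chrX:151800785-151935417, plus strand), a very large ubiquitin ligase, had 30, 26 and 24 bins in KO+WT and 21, 13 and 2 in KO+5RK, the third list again being the lowest. The Huwe1 ranges met at equal list length, with 21, 24 and 18 against 18, 12 and 2. In KO, Huwe1 had 6, 6 and 14 bins. Besides Srrm2, Huwe1 and Jmjd1c, the other 7 of the 10 named genes with fewer bins kept their ranges apart at equal length.

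Tnrc6b (chr15:80711313-80941086, plus strand), a scaffold of microRNA silencing, had 13, 13 and 12 bins in KO+WT and 6, 5 and 2 in KO+5RK. It was nearly without bins in the knockout, at 0, 1 and 0. Trps1 (chr15:50654757-50890631, minus strand), a GATA-type repressor, had 9, 8 and 7 against 2, 1 and 2, and no bin in any KO list. Both Trps1 bins that were lost were called in all 3 WT lists and in no KO or KO+13RK list.

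Rere, a nuclear corepressor gene, had 7, 10 and 8 bins in KO+WT and 3, 2 and 1 in KO+5RK. Dido1, a chromatin reader with a role in stem cell differentiation, had 12, 11 and 8 against 3, 1 and 3. Dido1 differed from the others in that its 2 lost bins were called in no WT list. Zfyve28, an endosomal regulator of growth factor receptors, had 7, 10 and 7 against 1, 1 and 4. Each WT list called its 3 lost bins, and 3, 1 and 3 KO+13RK lists did, so they were mostly present in the other mutant. Jmjd1c, of the histone demethylase family, had 11, 10 and 11 against 5, 8 and 1. The Jmjd1c ranges overlapped at equal list length, with 10, 7 and 10 against 5, 8 and 1. In KO, Rere had 3, 6 and 3 bins, Dido1 3, 1 and 2, Zfyve28 none and Jmjd1c 4, 5 and 9. Gm21992 had 17, 20 and 19 against 8, 8 and 8, but its bins also lie over 4 other genes and the name is uncertain.

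In the other direction, Rpl4 (chr9:64173387-64178562, plus strand), of the large ribosomal subunit, had 4, 5 and 4 bins in KO+WT and 10, 7 and 9 in KO+5RK, with no overlap and 3 gained bins. These Rpl4 bins were very weak, at percentiles of 0.116 to 0.361 in the KO+5RK lists. Eef1a1, the elongation factor that carries tRNA to the ribosome, had 1, 1 and 3 against 8, 4 and 5. Eif4b, an initiation factor gene, had 2, 2 and 1 against 7, 4 and 4, while Rpl8 had 1, 1 and 1 against 4, 4 and 2. Eif4b had 6, 5 and 6 in WT, so there its KO+5RK count lay nearer to the parental line than the KO+WT count did.

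Tubb5, a beta-tubulin gene, had 7, 7 and 7 bins in KO+WT and 16, 9 and 9 in KO+5RK. Rad9a, a subunit of the checkpoint clamp, had 3, 3 and 3 against 6, 6 and 5. Cdk8, the kinase of the Mediator complex, had 2, 1 and 2 against 7, 3 and 4. Nampt, which makes the precursor of NAD, had 1, 2 and 2 against 5, 3 and 4, but with a deposited q at or under 0.005 the sign turned and the difference in mean bins of Nampt was -0.667. Idh3a, of the citric acid cycle, had 2, 1 and 1 against 3, 3 and 4. Gm26561 had 14, 12 and 14 against 22, 18 and 20, over 7 other genes, so its name is uncertain. At equal list length Rpl4 had 4, 3 and 4 against 6, 4 and 9 and Rpl8 1, 1 and 1 against 3, 1 and 2. Eef1a1 then had 1, 1 and 2 against 2, 4 and 5, and Idh3a 2, 1 and 1 against 2, 2 and 4. The ranges of these 4 genes met, and the other 6 of the 10 named genes with more bins kept theirs apart.

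**Figure D4:**
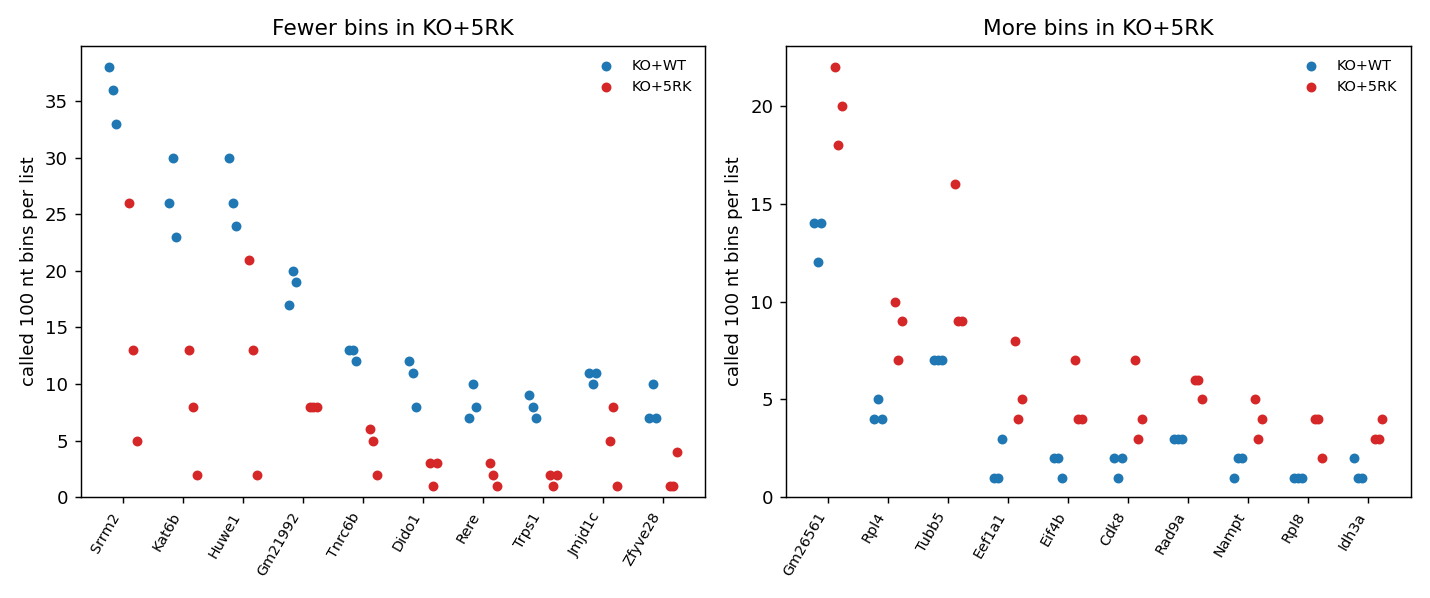
Called bins per list for the 10 genes with the largest difference in mean bins in each direction, among genes called in all 6 lists whose values did not overlap; each point is 1 list, in the order of replicates 1 to 3, and the 2 panels have different axes. Kat6b runs from 23 to 30 bins in KO+WT and from 2 to 13 in KO+5RK, and Rpl4 from 4 to 5 and from 7 to 10.

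DNA repair genes, the subject named in the series title, gave small numbers in both directions. Of the crosslink repair list, 46 of 49 symbols were called in any of the 6 lists and 1 was lost. This was Palb2, the bridge between BRCA1 and BRCA2, with 1 bin in each KO+WT list. Palb2 had 1, 0 and 1 bins there at equal list length and was not lost, and in the list 0 members then had fewer bins throughout and 2 had more. Of all 11095 genes, 206 then had fewer and 172 had more. With all deposited peaks no other member of that list had fewer bins in every KO+5RK list, which makes 1 of 46, or 2.17%, against 3.5% over all genes. Brca1 had 5, 4 and 4 bins in KO+WT and 4, 3 and 2 in KO+5RK, values that met at 4. Fancm, a helicase of the Fanconi pathway, had 8, 4 and 4 against 5, 5 and 2, and no bin in KO. Rev3l, the catalytic subunit of translesion polymerase zeta, had 1, 3 and 6 against 2, 0 and 0 (exact permutation p = 0.2).

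Of the homologous recombination list, 5 of 41 called members had fewer bins in every KO+5RK list (12.2%) and 1 had more (2.44%). These shares were 3.5% and 0.829% over all genes, and 6.58% and 0.924% among genes called in all 6 lists. At equal list length 3 members had fewer and 2 had more, where 206 and 172 of all 11095 genes did. Rad51b had 3, 3 and 3 bins in KO+WT and 0, 1 and 0 in KO+5RK. Rad51b had 2 adjoining lost bins, chr12:79393252-79393351 and chr12:79393352-79393451, neither of them called in a KO+13RK list. The first was called in 3 KO lists and the second in 2, and Rad51b had 4, 2 and 3 bins in KO. Mdc1, a scaffold at DNA breaks, had 5, 7 and 5 against 3, 4 and 4, and Rnf169, a reader of ubiquitin at breaks, had 4, 3 and 3 against 2, 0 and 0. Palb2 and Rnf168, the ligase that marks chromatin at breaks, were lost as genes, with 1 bin in each KO+WT list. Neither had a lost bin, so it was not the same bin in all 3 lists. Babam1, of a BRCA1 complex, was gained with 1 bin per list at a percentile of 13.0. Mdc1 and Rnf169 were named after their values were seen. The median difference in mean bins of the list was -0.33, the same as over all 11095 genes.

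In the excision and mismatch repair list, 3 of 45 called members had fewer bins throughout and 1 had more (2.22%, against 0.829% over all genes). The first is 6.67%, against 3.5% over all genes and 6.58% among genes called in all 6 lists. At equal list length 2 members had fewer and 1 had more, where 206 and 172 of all 11095 genes did. Ercc6 (chr14:32513291-32580990, plus strand), which starts transcription-coupled repair, had 3, 4 and 5 bins in KO+WT, 4, 9 and 8 in WT and none in KO+5RK, the highest mean of the 112 lost genes. It was called in 2 KO+13RK lists and 1 KO list. The helicase gene Ercc2 had 4, 4 and 5 against 1, 2 and 1, and the nuclease gene Apex2 had 2, 3 and 4 against 0, 1 and 0. Gtf2h2, of the same TFIIH complex as Ercc2, had 1, 1 and 1 against 2, 2 and 3. Ercc2, Apex2 and Gtf2h2 were named after their values were seen. Of the 12 called end joining genes none was lost or gained, and none had fewer or more bins throughout. Over all genes these shares were 1.01%, 0.487%, 3.5% and 0.829%, so none among 12 genes is near them.

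The checkpoint and cell cycle list had 4 of 48 called members with fewer bins and 1, Rad9a, with more (2.08%, against 0.829% over all genes). Chek1, the kinase that halts the cycle after replication stress, had 2, 1 and 2 bins in KO+WT and none in KO+5RK or KO+13RK. In KO, Chek1 had 1, 3 and 0 bins. Its lost bin, chr9:36723883-36723982, was weak, at percentile 15.0, with q of 0.01606, 0.008965 and 0.04427. Chek1 had 1, 1 and 0 bins in KO+WT at equal list length, and it was then not lost. Mdm2, the ligase for p53, had 5, 6 and 5 against 4, 3 and 2, and Cdk4, a kinase of the G1 phase, had 2, 3 and 3 against 1, 1 and 1, both named after their values were seen. Mad2l1, of the spindle checkpoint, had 3, 5 and 1 against none, but 37.5% of its bins lay inside its RefSeq span, and at equal list length it had 2, 1 and 0 in KO+WT. The share of members with fewer bins was 8.33%, against 3.5% over all genes and 6.58% among genes called in all 6 lists. At equal list length 1 member had fewer and 3 had more, where 206 and 172 of all 11095 genes did. At that length the list had 58.7 ± 1.53 bins in KO+WT and 68.7 ± 0.577 in KO+5RK (SD, n = 3), where all deposited peaks gave 84 ± 8.72 and 73 ± 3.61. Its direction thus depends on list length.

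Chromatin modifiers had 295, 351 and 283 bins in KO+WT and 225, 212 and 176 in KO+5RK. The ranges did not overlap, and at equal list length the means were still 251 ± 11.4 and 197 ± 18.2 (SD, n = 3). Of 72 called members 52 had a lower mean in KO+5RK, 17 a higher and 3 the same, with a median difference of -1.17 bins against -0.33 over all genes. In 7 members (9.72%) every KO+5RK list had fewer bins, and in 0 had more, against 3.5% and 0.829% over all genes and 6.58% and 0.924% among genes called in all 6 lists. The 4 members with fewer at equal list length were Kat6b, Ezh2, Kdm4c and Arid1b. Of all 11095 genes, 206 had fewer and 172 had more at that length. With all deposited peaks, the members with fewer besides Kat6b were Ezh2, the Polycomb methyltransferase, Kdm4c, a demethylase, Dnmt3l, Tet2, Arid1a and Arid1b. Ezh2 and Kdm4c were lost as genes, with 1 bin in each KO+WT list. Neither had a lost bin, so it was not the same bin in all 3 lists. Tet2, which oxidises methylcytosine, had 9, 11 and 7 against 6, 3 and 5. Arid1a, of the SWI/SNF remodeller, had 7, 7 and 8 against 2, 6 and 3, and Arid1b had 6, 9 and 5 against 3, 3 and 3. Dnmt3l, Tet2, Arid1a and Arid1b were named after their values were seen. All 3 KO+WT lists called 60 of the 72 members (83.3%), against 4005 of all 11095 genes (36.1%).

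Pluripotency genes were mixed. Esrrb, an orphan nuclear receptor of the naive state, had 9, 14 and 10 bins in KO+WT and 6, 7 and 3 in KO+5RK, with no overlap, and 2, 4 and 2 in KO+13RK. WT had 9, 8 and 9 Esrrb bins and KO 11, 9 and 8, so the knockout did not have fewer than WT in the mean. The lost Esrrb bin, chr12:86521318-86521417, lay 260.5 nt before the gene end and was called by all WT lists but by no KO list. Lin28b, which blocks let-7 maturation, was lost from 1 bin at chr10:45381021-45381120, percentile 72.2. Nr5a2 had 7, 8 and 7 against 6, 4 and 4, and Jade1 11, 10 and 10 against 9, 8 and 6, both named after their values were seen. In all, 4 of 42 called members (9.52%) had fewer bins throughout, against 3.5% over all genes and 6.58% among genes called in all 6 lists, and none had more. The 2 with fewer at equal list length were Esrrb and Lin28b. Of all 11095 genes, 206 had fewer and 172 had more at that length.

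The core factors of the list showed no such order. Nanog had 2, 2 and 2 bins in KO+WT and 3, 2 and 3 in KO+5RK, and Sox2 had 2, 4 and 3 against 5, 5 and 3. Tbx3 had 5, 4 and 4 against 4, 3 and 5 (exact permutation p = 1), and Klf4 1, 2 and 2 against 1, 1 and 1. Pou5f1, which encodes OCT4, had no bin in KO+WT and 1, 0 and 2 in KO+5RK. At equal list length the pluripotency list held 86.7 ± 8.08 and 87.7 ± 3.06 bins, in place of 119 ± 6.43 and 98 ± 12.5 (SD, n = 3).

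The m6A machinery list had a median difference in mean bins of -0.33, the same as over all genes. Its bins were 14.8% fewer in KO+5RK, against 19.1% over all genes, with 16 members lower in the mean, 6 higher and 7 equal. Of its 29 called members none was lost and 1 was gained, where 1.01% and 0.487% were over all genes. The gained member was Hnrnpa2b1, an RNA-binding protein linked to m6A, with 1, 4 and 2 bins. Mettl14 had no bin in KO+WT and 1, 0 and 1 in KO+5RK, which does not check the rescue, since a peak call does not report expression. Mettl3 had 1 bin in the first list of each of the 2 rescue lines and none in their other lists. Mat2a, whose transcript is methylated by METTL16 rather than by METTL14, had 5, 6 and 4 against 5, 5 and 5 (exact permutation p = 1). Mettl16 had 2, 3 and 1 against 1, 1 and 0. None of the 16 called arginine methyltransferase genes was lost or gained or had fewer or more bins throughout. Over all genes these shares were 1.01%, 0.487%, 3.5% and 0.829%, so none among 16 genes is near them.

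Ribosomal protein genes showed no single direction. Of 65 called members 29 had a lower mean in KO+5RK, 20 a higher and 16 the same, with a median difference of 0 bins. Their bins numbered 55, 61 and 53 in KO+WT and 66, 62 and 59 in KO+5RK, ranges that overlapped. At equal list length they numbered 34 ± 0 and 45.3 ± 11.9 (SD, n = 3). Among the members 3 had more bins throughout (4.62%, against 0.829% over all genes), Rpl4, Rpl8 and Rps3, and 1, Rpl7l1, had fewer, with 4, 4 and 3 against 1, 2 and 2. Rps3, of the small subunit, was gained at percentile 3.76, with 1 bin per list. At equal list length 0 members had fewer bins and 3 had more, then Rps3, Rpl5 and Rpl27a, the last 2 named after their values were seen. Of all 11095 genes, 206 had fewer and 172 had more at that length. Ribosomal protein genes have many processed copies in the genome, and how the authors' counting treated them was not given in the sources used here, so these values are uncertain.

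Among signalling genes, 3 of 46 called members had fewer bins throughout (6.52%) and 1 had more (2.17%), all named after their values were seen. These shares were 3.5% and 0.829% over all genes, and 6.58% and 0.924% among genes called in all 6 lists. Smad4 was the 1 member with fewer at equal list length, and 0 had more, where 206 and 172 of all 11095 genes did. Smad4, the shared mediator of TGF-beta signals, had 2, 3 and 2 against 1, 1 and 1. Spry4 had 7, 7 and 5 against 3, 2 and 3 and Spry2 1, 0 and 1 against 2, 2 and 3, so these paralogous inhibitors of FGF signalling went in opposite directions. Sos1, which activates RAS, had 6, 4 and 5 against 2, 3 and 3. Noncoding RNAs kept most of their core, with 97.1%, 94.1% and 88.2% of 34 core bins called in the KO+5RK lists. The KO lists called 67.6%, 64.7% and 64.7% of the same 34 bins.

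**Figure D5:**
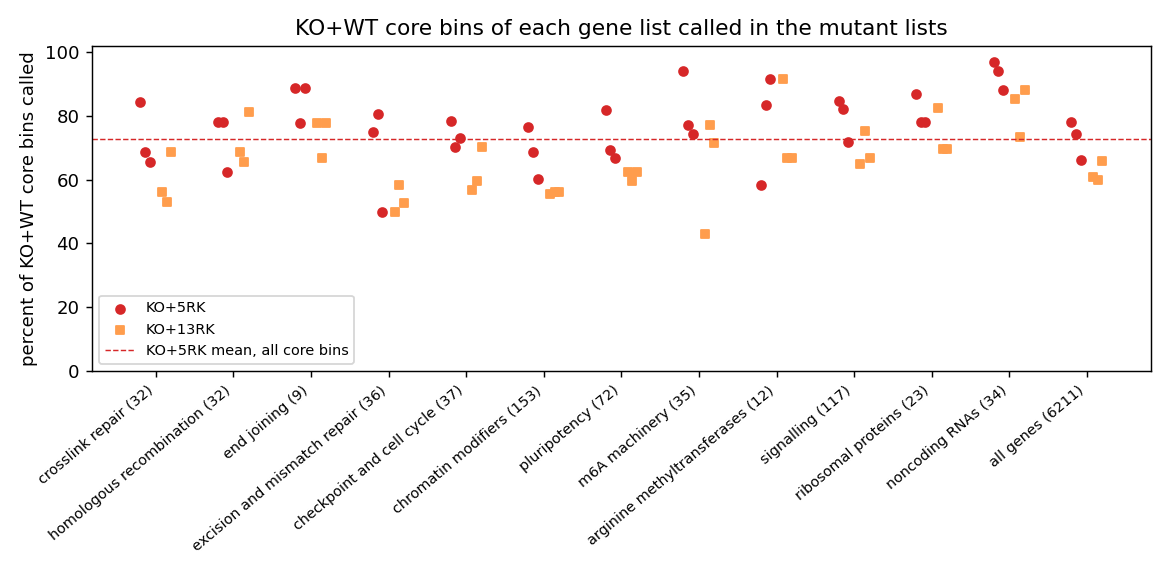
Percent of the KO+WT core bins of each gene list (number of core bins in brackets) called in the 3 KO+5RK lists and the 3 KO+13RK lists; points are lists and the dashed line is the KO+5RK mean over all core bins, 72.9%. The chromatin modifiers lie at 60.1% to 76.5% in KO+5RK and the noncoding RNAs at 88.2% to 97.1% across the 3 lists.

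The labelled cell type was checked by the genes with peaks. Of 46 pluripotency symbols 37, 32 and 31 had a peak in the KO+WT lists and 32, 33 and 28 in the KO+5RK lists. Of 30 fibroblast markers 3, 3 and 5 had one in KO+WT and 3, 1 and 3 in KO+5RK, with Col1a1, Pdgfra and Acta2 at 0. Of 29 primed state and germ layer markers 1, 6 and 1 had one in KO+WT and 1, 4 and 2 in KO+5RK, with Sox17, Gata6 and Pax6 at 0. Peaks require both the transcript and its mark, so these counts check the cell type only in part.

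No single bin or gene could pass a test of 3 lists against 3. Fisher's exact test per feature gave a smallest p of 0.1, so 0 of 36049 bins and 0 of 11095 genes reached an unadjusted p under 0.05, and 0 passed after Benjamini-Hochberg adjustment (smallest adjusted p = 1). Lists of one line were not much more alike than lists of different lines. The median Jaccard index, the bins in both lists over the bins in either, was 0.374 between KO+WT lists, 0.304 between KO+5RK lists and 0.326 between lists of different lines.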

How the data were processed

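m6A peaks were compared as deposited, in 15 lists of 3 per line. Per the labels' protocols, fragments of mRNA were pulled down with an antibody to m6A, and stranded libraries were built from them. GRCm38, kallisto 0.43.0 and STAR 2.5.3a are named in the submitters' processing notes with no role, and the peak caller was not given in the sources used here. Deposited lists give, per bin of 100 nt, an enrichment score of the authors' own (scale not given), a deposited p-value and a deposited q-value, the largest q being 0.04999. These ranked or filtered bins within a list only. Depth is unknown, and no counting interval can be given. The input libraries were not analysed here.

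Bins (same position and strand) and genes were compared by presence in a list, with Python 3.11.15, pandas 2.3.3 and SciPy 1.17.1. Symbols matched 99.8% of the genes, and 87.8% of peaks were placed on a RefSeq gene span. Line means were compared by two-sided exact permutation tests, and features by Fisher's exact test with Benjamini-Hochberg adjustment. Counting was tested on simulated lists. Alternatives were a stricter q of 0.005, enrichment at or above the median (1.34), equal list length, merged bins, a 100 nt distance, calls in 2 of 3 lists, other windows, each replicate left out and the replicate number as a block.

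Genes named are 14 of the m6A, pluripotency and repair fields, up to 6 lost and 6 gained members of each of 14 gene lists, the 12 lost and 12 gained genes and bins of highest mean percentile, and the 10 genes in each direction with the largest difference in mean bins without overlap. Others are stated as named after their values were seen. The members, the lists and the rule were chosen with earlier results of these data known.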

Additional observations from a re-analysis of the deposited data

How the results depend on the processing

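KO+5RK lists had fewer peaks and genes under each alternative that does not fix the length of the lists, with a difference in peaks per list of -3418 to -1919 when one replicate was left out, where the smallest possible p is 0.2. The lost and gained counts depended on the settings. Lost bins numbered 295 at a deposited q at or under 0.005, 237 where the enrichment value reached the median, 245 at equal list length, 2468 with calls in at least 2 of 3 lists and 177 with no bin of the other line within 100 nt, in place of 471. Gained bins numbered 46 and 71 at the first 2 of these settings, 1049 with calls in at least 2 lists and 53 with no bin within 100 nt, in place of 124. Lost genes numbered 70 at equal list length and 545 with calls in at least 2 lists, in place of 112. Gained genes numbered 22 at the stricter q, 87 at equal list length and 327 with calls in at least 2 lists, in place of 54. Leaving out one replicate gave 697 to 1289 lost bins, 183 to 459 gained bins, 208 to 286 lost genes and 97 to 160 gained genes, since 2 lists are then enough. Of the 471 lost bins 48 were also lost at the stricter q and 227 at equal list length, so the sets changed along with their sizes. The difference in the share of a list near the gene start was -0.351 to 1.26 with one replicate left out, and it turned to -0.351 without KO+WT replicate 3 and to -0.0916 without KO+5RK replicate 1, while the difference in mean bins of Nampt turned to -0.667 at the stricter q. Genes with fewer bins in every KO+5RK list numbered 270 at the stricter q, 234 at the enrichment median, 206 at equal length and 564 to 858 without one replicate, and genes with more 34, 52, 172 and 161 to 284. The cause was not tested. Replicate numbers did not pair the lists, since the correlations of the deviations of same-numbered lists were 0.0188 to 1.75e-05 over bins. With the replicate number as a block the difference in peaks was -2909, with an exact permutation p = 0.25, the smallest that 3 pairs allow, and no call changed. Without Gm20388 and Fgfr2, left out after seeing the data, 466 bins were lost and 114 gained. The unknown depth limits each count of absent bins.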

Other observations

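A few genes were called in some lines and in no list of others, and their values were chosen after they were seen. What sets these lines apart was not tested. Eif2s3y, a translation factor gene on the Y chromosome, had 2, 1 and 1 bins in KO+5RK and 1, 1 and 2 in KO+13RK, and none in WT, KO or KO+WT. The other Y-linked genes Ddx3y, Uty, Kdm5d, Zfy1 and Uba1y had at most 3 bins in any list. Of these, Uty had 1, 0 and 2 bins in KO+WT and 0, 1 and 3 in KO+5RK, and Kdm5d and Uba1y were each called in 1 KO list. Gm47283, also on the Y chromosome, had 25, 25 and 24 bins in WT, 25, 23 and 23 in KO, and none in any of the 9 rescue lists. Sfi1 had 9 bins in each WT list and 2 in each KO list and none in the rescue lists. Cebpb, a transcription factor gene with a single exon, had none in WT or KO and 1 bin in each of the 9 rescue lists. The bins listed under Gm20388 made up 3.55%, 2.55% and 3.29% of the peaks of the KO+WT lists and 5.14%, 3.47% and 3.57% of those of the KO+5RK lists.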
